A study of Arabidopsis thaliana with 15 samples.

Results

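The genes described here are 113 Arabidopsis root transcripts whose level stood close to that of water-treated roots after 1 h of hydrogen peroxide (H2O2) and far below it after 3 h. They are called late fallers here. They were chosen on measured values, from CPM values (a gene's count divided by its library's total count, times 1000000) averaged over 3 libraries a group. A member had at least 10 CPM in water, a log2 ratio of 1 h over water within 0.5 of 0, and a log2 ratio of 3 h over water of -1.7 or lower, each ratio taken after adding 2 CPM to both means. The 14532 genes listed held 6739 with at least 10 CPM in water, of which 4208 were flat at 1 h by this rule, and the late fallers are 1.68% of the former and 2.69% of the latter. The water, 1 h and 3 h libraries chose the members, so their values at 1 h and 3 h are given as a description, with no test.

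The libraries came from roots of wild-type Columbia-0 seedlings, 7 d old, with 30 to 50 seedlings in a biological replicate and 3 replicates, written a, b and c, in each of 5 groups. Shoots were removed once the treatment had ended, and root RNA was read by MARS-seq, which counts tags from the 3' ends of poly(A) RNA. The groups were water, 5 mM H2O2 for 1 h, 2 h or 3 h, and a 2 h treatment that joined 10 µM RB to 5 mM H2O2. RB, which 1 label field spells MRB, is taken to be the Rose Bengal of the study's title, a dye that makes singlet oxygen in light. Water libraries carry time 0 in their titles and 1 h in their treatment field, so time in solution and H2O2 differ together at 2 h and 3 h, and RB alone was not analysed here. The 2 h groups took no part in choosing the members, but each comparison with water shares the water libraries with the rule.

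H2O2 enters plant cells through membrane channels, oxidises proteins and lipids, and acts as a signal that changes the transcription of many genes. A transcript's level after a stress depends on how fast it is made and how fast it is broken down, and an unchanged level early on can hide changes in both. Roots rely on the secretory pathway to deliver wall polysaccharides and glycoproteins to growing cells, on proton pumps to load vacuoles, and on ribosomes and proteasomes for protein turnover. Members of each of these kinds are described here by their roles.

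Total counts per library ran from 689372 to 6231140, and each 3 h library (2580683 or more) was deeper than each 2 h library of H2O2 alone (2456784 or fewer). Summed root hair markers (6 of 8 listed genes were in the table) stood at 122 to 262 CPM in water, 16.0 to 40.8 at 1 h, 9.39 to 15.6 at 2 h, 8.02 to 25.2 with RB and 6.2 to 14.7 at 3 h, and none of the 6 was at 0 throughout a group. Root cap markers (4 genes) ran from 19.2 to 29.0 CPM in water, 4.70 to 8.95 at 2 h and 3.49 to 7.60 at 3 h, with 1 gene at 0 in the 2 h and in the 3 h group. Cortex markers (2 genes) ran from 36.1 to 60.5 CPM in water, 28.2 to 45.6 at 2 h and 13.2 to 28.7 at 3 h. Endodermis markers (8 genes) ran from 741 to 1056 CPM in water and 695 to 790.5 at 3 h. Pericycle and stele markers (2 genes) ran from 77.9 to 122 CPM in water and 36.0 to 89.7 at 3 h. Xylem markers (5 genes, 1 at 0 at 3 h) ran from 194 to 258 and 197 to 241. Phloem markers (3 genes) ran from 186 to 213 and 91.8 to 248, and meristem markers (5 genes) from 26.2 to 37.6 and 13.9 to 33.1. Shoot photosynthesis markers (9 genes) ran from 331 to 409 and 346 to 398. In bulk roots, fewer cells of a type and less RNA per cell cannot be told apart, and the part of these marker changes in the late fallers was not tested.

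The median late faller stood at 21.3 CPM in water, 19.4 at 1 h, 14.9 at 2 h, 19.7 with RB and 3.29 at 3 h. The median log2 ratio to water was -0.39 at 2 h, -0.15 with RB and -2.04 at 3 h, where it ran from -3.44 to -1.7. Over all 4208 genes flat at 1 h the medians were -0.14, -0.11 and -0.22. Per library, the members' median log2 ratio to the water mean was -1.90, -2.20 and -2.25 in the 3 h libraries, -0.31, -0.41 and -0.49 in the 2 h libraries, and 0.13, -0.23 and -0.56 in the RB libraries. The 3 h libraries lay apart from the other 12, and among the RB libraries replicate a was high and replicate c low.

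**Figure D1:**
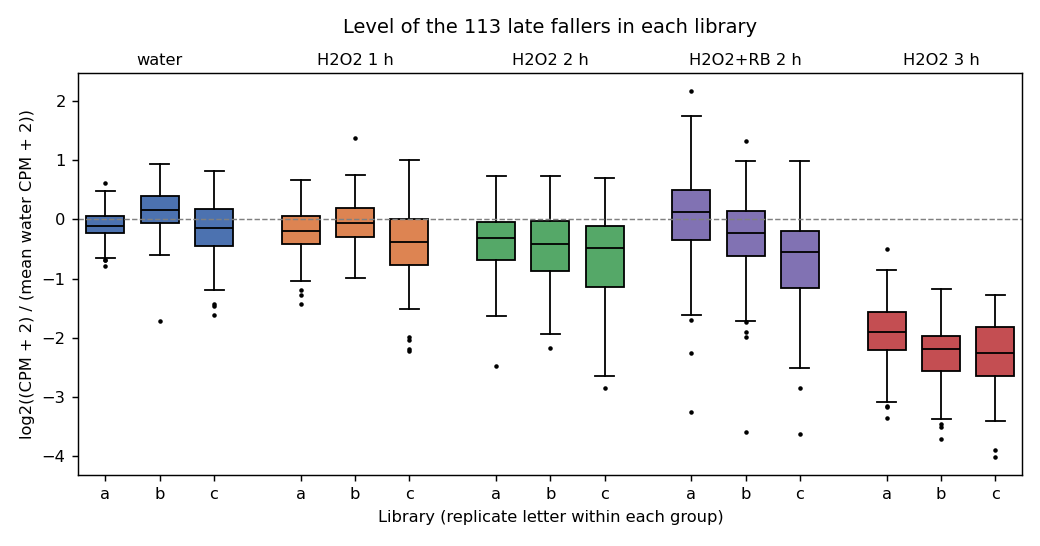
Boxes show the 113 late fallers in each of the 15 libraries, as the log2 ratio of a library's CPM to the mean CPM in water (2 CPM added to both). Boxes span the quartiles with the median as a line, whiskers reach at most 1.5 times the box height and points lie beyond; the medians of the 3 h libraries, -1.90 to -2.25, sit under those of the other 12.

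The log2 ratio fell further from 2 h to 3 h than from water to 2 h in 94 of the 113 late fallers. The rule asked for a flat 1 h and a low 3 h value, so this count is a description. In 83 of the 113 late fallers (73.5%) every 3 h library was below all 6 libraries of the 2 h groups, and 5.49% of the genes flat at 1 h showed the same; the 3 h libraries entered the rule, so nothing is read from this difference. In 79 of them (69.9%, against 4.37%) every 3 h library was below all 12 others. The late fallers took 0.729% to 0.918% of the counts of a water library, 0.593% to 0.842% at 1 h, 0.466% to 0.653% at 2 h, 0.471% to 0.771% with RB and 0.118% to 0.242% at 3 h. Their levels in water spanned 10.01 to 1073 CPM, with 15 over 100 CPM and 67 under 25 CPM. Fold differences in this text are ratios of mean CPM without the added 2 CPM. By that measure 34 members were at least 8-fold lower at 3 h. A low 3 h mean raises such a fold, and 75 members had a 3 h mean under 5 CPM. Counts of the 113 late fallers summed over the 3 h libraries ran from 2 to 3684 with a median of 33, so the 3 h level of many members rests on few counts.

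Members just inside the 3 h limit were KIN10, RHA1B and AT2G46600 (-1.7 each, rounded), and those just outside it were AT3G51950 (-1.699), AT1G52060 (-1.69) and WAT1 (-1.68). At the 1 h limit, HMG2 (-0.49), AILP1 (-0.49) and ERMO2 (-0.49) were inside, and AT5G48560, AT4G06744 and AT4G18670 (-0.50 each) were outside. AT5G40150, KIN10 and ACD11 stood just above 10 CPM in water, with 10.0, 10.1 and 10.5 CPM, and TTN5, AT4G22212 and AT2G31370 just under it, with 9.89, 9.88 and 9.70 CPM. AT4G06744 and AT4G18670 had 3 h ratios of -3.60 and -2.50 and were kept out by their 1 h value alone.

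When the rule was applied without 1 of the 3 h libraries and the genes it chose were read in the library left out, their median log2 ratio to water there was -1.51 in library a (175 genes), -2.19 in library b (101 genes) and -2.06 in library c (107 genes). A ratio of -1 or lower was reached there by 73.1%, 98.02% and 95.3% of them, and by 6.202%, 13.8% and 23.7% of the genes flat at 1 h. Library a was the highest of the 3 h libraries in 61 of the 113 members, library b in 14 and library c in 38. The water and 1 h libraries are shared by choice and reading, so these values are a description.

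The late fallers differed in their course at 2 h, and the courses named here were defined after the values were seen. In 59 the log2 ratio to water was above -0.5 both at 2 h and with RB (a late step), in 28 it was -0.5 or lower in both (a gradual course), and 26 lay between (mixed). The median ratio of the late step genes was -0.07 at 2 h, 0.13 with RB and -2.04 at 3 h. The gradual genes stood at -1.03, -0.98 and -2.02. The rule holds every 3 h ratio at -1.7 or lower, so the nearness of the 3 h medians is not a result. The 3 h libraries were below all 6 libraries of the 2 h groups in 56 of the 59 late step genes, 19 of the 26 mixed genes and 8 of the 28 gradual genes, which in part follows from how the courses were defined.

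**Figure D2:**
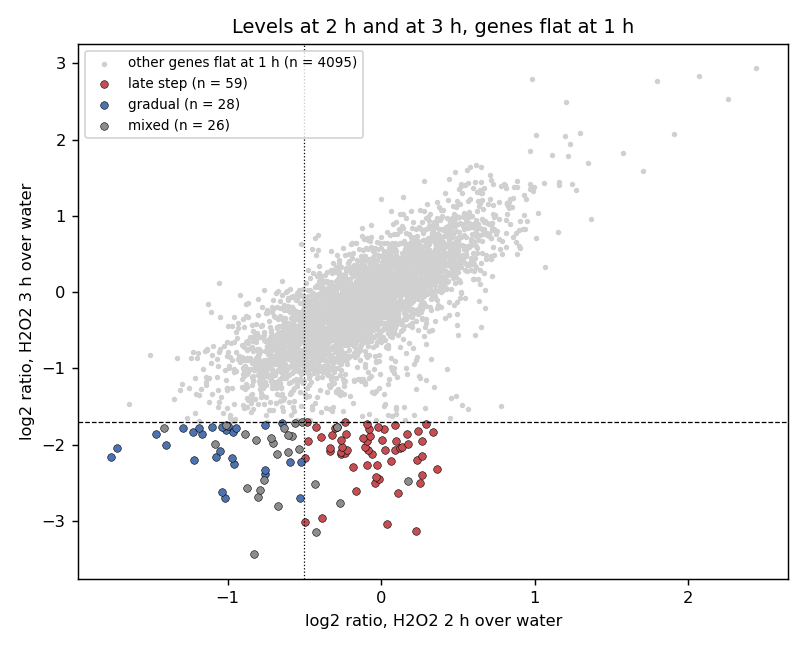
Each point is a gene flat at 1 h, placed by its log2 ratio to water at 2 h (horizontal) and 3 h (vertical); late fallers are coloured by course and the other flat genes are grey. The dashed line marks the 3 h limit of -1.7 and the dotted line -0.5 at 2 h: late step genes lie to its right, gradual genes to its left and mixed genes on both sides.

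Courses differed with the roles of the genes, which were assigned from the RefSeq product names once the members were known. Of 17 cell wall and arabinogalactan proteins, 1 had a late step, 11 were gradual and 5 mixed, with a median ratio of -0.99 at 2 h. Of 15 genes of translation, ubiquitin and the proteasome, 13 had a late step, and the median at 2 h was -0.09. Late steps were also the commonest course among 12 signalling and transcription genes (9) and 17 genes of metabolism and respiration (10). MYB34, an activator of indole glucosinolate synthesis with a gradual course, is counted with metabolism and not with transcription. Of 16 secretory genes 7 had a late step, 3 were gradual and 6 mixed, and of 10 pumps and transporters 4, 2 and 4. The other 26 members held 15, 7 and 4. At 3 h the medians of these role groups lay between -1.94 and -2.20, a range limited by the rule. Roles were set with the values known, so no test of these differences is given.

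**Figure D3:**
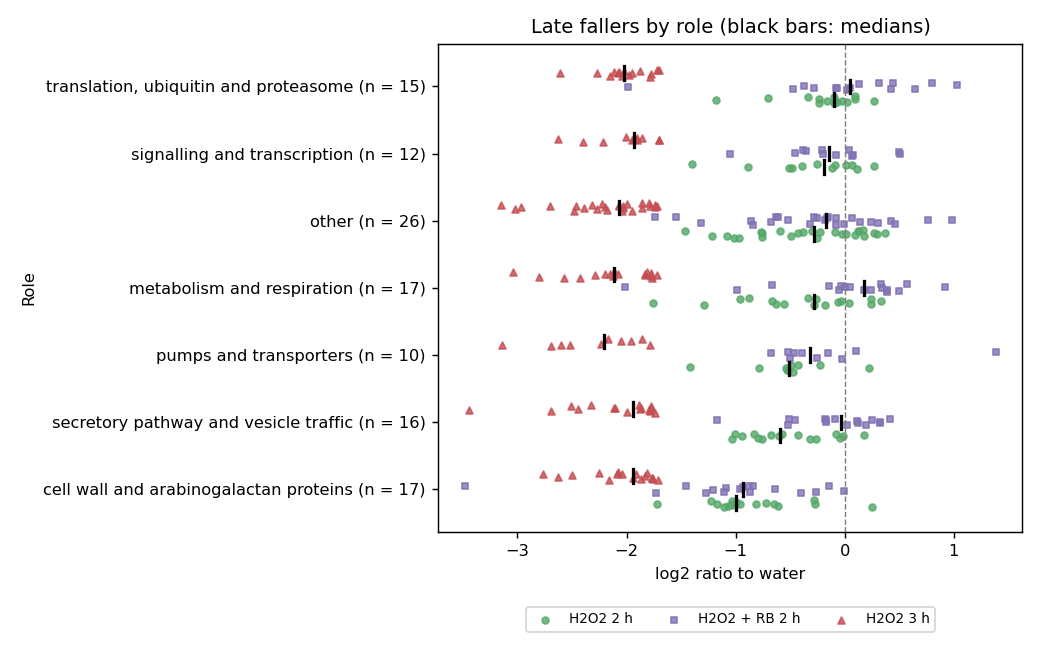
Log2 ratios to water of the late fallers in each role group, at 2 h (circles), with RB for 2 h (squares) and at 3 h (triangles); each symbol is a gene and black bars are medians. The medians at 2 h run from -0.99 for wall genes to -0.09 for genes of translation and protein turnover, while the 3 h symbols overlap.

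The member with the lowest 3 h ratio was AT4G31480, a β subunit of coatomer, the COPI coat that carries cargo back from the Golgi to the endoplasmic reticulum. It stood at 40.6, 38.2 and 21.3 CPM in water, 25.99, 23.3 and 20.3 at 1 h, 21.6, 16.5 and 15.7 at 2 h, 34.7, 29.3 and 24.6 with RB and 1.96, 1.43 and 0.387 at 3 h. At 3 h the libraries were below all others without overlap, and the 2 h libraries overlapped those of 1 h. Without the added 2 CPM the mean was 26.5-fold lower at 3 h than in water, and with it the log2 ratio was -3.44. The neighbouring gene AT4G31490 encodes a second β subunit and stood at 1.18 CPM in water. The 3' ends of these copies were not compared, so how tags were shared out between them is uncertain.

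The ε subunit of the same coat, AT1G30630, was also a late faller, with 14.4, 20.9 and 11.5 CPM in water, 16.1, 23.5 and 13.1 at 1 h, 19.1, 15.6 and 9.39 at 2 h, 20.7, 12.3 and 23.8 with RB and 2.94, 3.22 and 3.10 at 3 h. Here the 1 h, 2 h and RB libraries overlapped those of water and the 3 h libraries lay under all of them. Of the 14 coatomer genes listed, 11 were in the table and 8 had 10 CPM or more in water. The other 6 of these 8 had 3 h ratios between -1.11 (AT1G62020, an α subunit) and -0.40 (AT4G34450, a γ subunit), so AT4G31480 and AT1G30630 had the lowest ratios of the 8. AT1G30630 overlaps a neighbouring gene in the annotation, and the sources used here do not say whether counting used strand.

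Of the COPII coat, which buds vesicles from the endoplasmic reticulum, 2 parts were late fallers. SAR1B, the small GTPase that starts the coat, stood at 16.1, 41.4 and 9.84 CPM in water, 17.03, 38.7 and 27.6 at 1 h, 28.9, 22.9 and 25.1 at 2 h, 35.99, 24.6 and 25.2 with RB and 3.43, 4.30 and 4.65 at 3 h. Its 3 h values lay close together and under the other 12 libraries, among which water ranged widely. The other SAR1 genes in the table, SAR2 and AT3G62560, stood at 1.55 and 3.01 CPM in water, too low for the rule. ERMO2, a SEC24 cargo adaptor, stood at 14.4, 17.9 and 2.46 CPM in water, 8.07, 13.4 and 1.45 at 1 h, 8.95, 1.83 and 3.13 at 2 h, 6.66, 9.38 and 6.58 with RB and 2.94, 1.43 and 1.55 at 3 h. Its 3 h libraries overlapped those of water, 1 h and 2 h, where replicate c or b was low, and lay under those with RB. The list of COPII and ARF-GEF genes, which holds ERMO2 but not SAR1B, had 5 genes with at least 10 CPM in water. Of these 5, 2 were flat at 1 h, and their median ratio was -0.49 at 1 h, -0.996 at 2 h and -1.39 at 3 h over all 5.

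STT3A, the catalytic subunit of the oligosaccharyltransferase that adds N-glycans to proteins in the endoplasmic reticulum, stood at 25.3, 30.9 and 6.56 CPM in water, 14.3, 57.1 and 2.90 at 1 h, 17.5, 10.98 and 8.61 at 2 h, 25.99, 19.9 and 17.97 with RB and 5.64, 0.716 and 3.49 at 3 h. The 1 h libraries spread over a wide range, with replicate c below 2 of the 3 h values, and the 3 h libraries were under those of both 2 h groups. Its paralog STT3B stood at 8.15 CPM in water and 5.23 at 3 h, a ratio of -0.49. PRA1.B4, a membrane protein of the family that binds prenylated Rab GTPases, stood at 29.7, 49.9 and 21.3 CPM in water, 45.7, 35.6 and 21.8 at 1 h, 25.2, 13.7 and 16.4 at 2 h, 35.99, 39.9 and 12.5 with RB and 7.11, 0.716 and 2.71 at 3 h. All others lay above the 3 h libraries, which differed among themselves.

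The remaining secretory members were the 19 kDa protein of the signal recognition particle (AT1G48160), the protein disulfide isomerases UNE5 and PDIL1-3, SCAMP5, the reticulon-like BTI3, AT4G12650 of the endomembrane 70 family, AT2G29020, AT3G27325 and 2 Target of Myb 1 proteins (AT1G21380 and AT5G16880). Their 3 h ratios ran from -2.51 (AT1G21380) to -1.74 (AT5G16880). PDIL1-3 was gradual, with means of 53.2 ± 44.5, 26.7 ± 24.8 and 14.04 ± 8.53 CPM (SD, n = 3) in water, at 2 h and at 3 h. AT1G21380 had a late step, with 25.1 ± 0.605, 24.3 ± 4.86 and 2.76 ± 1.25 CPM.

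Among the proton pumps, subunit F of the vacuolar H+-ATPase (AT4G02620, part of the stalk of the enzyme that acidifies the vacuole) stood at 206, 216 and 143 CPM in water, 176, 272 and 189 at 1 h, 216, 188 and 257 at 2 h, 285, 161 and 163 with RB and 16.7, 15.4 and 26.7 at 3 h. The lowest of the other 12 libraries had 143 CPM and the highest 3 h library 26.7. The gene overlaps 2 other annotated genes, 1 of them AT4G02610. AVA-P1, 1 of the genes for the membrane-embedded c subunit, stood at 22.7, 29.2 and 23.8 CPM in water, 23.3, 22.4 and 15.96 at 1 h, 13.4, 13.7 and 14.1 at 2 h, 33.3, 13.5 and 15.7 with RB and 3.43, 2.51 and 1.55 at 3 h. The 2 h libraries were under those of water and the 3 h libraries under both.

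Other genes for the c subunit did not share this course. AVA-P2 stood at 1227 CPM in water and 1048 at 3 h, VHA-C3 at 290.2 and 275, and AVA-P4 at 578 and 653. The signs of the small ratios of AVA-P2 and VHA-C3 turn from negative to positive under TMM, median-of-ratios and upper-quartile scaling, while AVA-P1 stayed between -2.60 and -2.41. The 3' ends of these c subunit genes were not compared, and reads may have been split between them. Of 13 vacuolar ATPase genes with at least 10 CPM in water, 2 were late fallers, and VHA-A, the catalytic subunit, had a 3 h ratio of -2.74 but was already at -0.84 at 1 h. The 11 that were no late fallers, VHA-A among them, had a median of -0.20.

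The carriers among the members were AT3G30390 (an amino acid transporter family protein), AT1G53210 (a cation exchanger), PGLCT (plastidic glucose translocator), the zinc transporter AT5G38380, the sulfate transporter SULTR1;2, the choline transporter family protein AT5G13760, CUE1 and ABCG35. AT3G30390 was the lowest of these at 3 h, with 61.1, 104 and 36.1 CPM in water, 39.4, 109.5 and 23.2 at 1 h, 67.2, 47.6 and 22.7 at 2 h, 43.3, 51.6 and 44.9 with RB and 8.58, 5.37 and 12.01 at 3 h. At 3 h each library was under all others, although water and 1 h libraries each ranged widely. CUE1 exchanges phosphoenolpyruvate for phosphate across the plastid envelope, and ABCG35 is an ATP-binding cassette transporter of the plasma membrane; both are taken up again with the RB groups.

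Among genes of translation, TCTP (AT3G16640), a conserved protein tied to growth control, was the second most abundant member. It stood at 1068, 1314 and 718 CPM in water, 707, 1187 and 567 at 1 h, 909.7, 958 and 896 at 2 h, 1448, 853 and 628 with RB and 152, 175 and 177 at 3 h. The highest 3 h library had 177 CPM and the lowest of the others 567, a 6.15-fold drop in the mean. The 2 h libraries lay within the range of the water libraries.

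3 ribosomal protein genes were late fallers out of 210 with at least 10 CPM in water, and the other 207 had a median 3 h ratio of 0.23. AT2G17360, for ribosomal protein S4, stood at 34.5, 52.8 and 25.4 CPM in water, 27.8, 36.5 and 24.7 at 1 h, 34.2, 36.6 and 34.4 at 2 h, 73.98, 39.9 and 41.7 with RB and 8.33, 7.16 and 3.10 at 3 h. Each 3 h library was under all others, and RB replicate a was the highest. AT5G07090 and AT5G58420 encode the same protein and stood at 1242 and 310.4 CPM in water and 1535 and 375 at 3 h. The member is thus the least abundant of its family, and its level at 3 h differed in direction from theirs under each scaling tried.

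RPS18C stood at 65.9, 67.2 and 72.2 CPM in water, 66.3, 57.3 and 58.02 at 1 h, 53.7, 64.9 and 75.9 at 2 h, 125, 75.03 and 57.3 with RB and 15.4, 15.8 and 20.1 at 3 h. At 3 h the libraries lay together under the others, while PFL, the abundant gene for the same protein, had 1299 CPM in water and 1702 at 3 h. The other S18 gene, AT1G34030, under the 10 CPM limit, had 6.98 and 2.38, a 3 h ratio of -1.04 that was negative under all 4 scalings. AT2G40205, 1 of 5 genes for the short ribosomal protein L41, stood at 15.7, 10.4 and 15.6 CPM in water, 9.86, 8.51 and 20.3 at 1 h, 9.77, 21.04 and 10.2 at 2 h, 69.3, 19.3 and 2.73 with RB and 1.23, 2.86 and 3.87 at 3 h, with RB replicates a and c far apart and overlap with 3 h. A further L41 gene, AT3G11120, had a 3 h ratio of -2.0 but stood under the 10 CPM limit, with 9.30 CPM, while AT1G56045 and AT3G56020 stood at 0.32 and 0.38. The remaining L41 gene, AT3G08520, had 20.3 CPM in water and a 3 h ratio of -0.63, also negative under all 4 scalings. How alike the copies of each family are in their counted 3' ends was not checked, so counts of the single genes are uncertain.

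**Figure D4:**
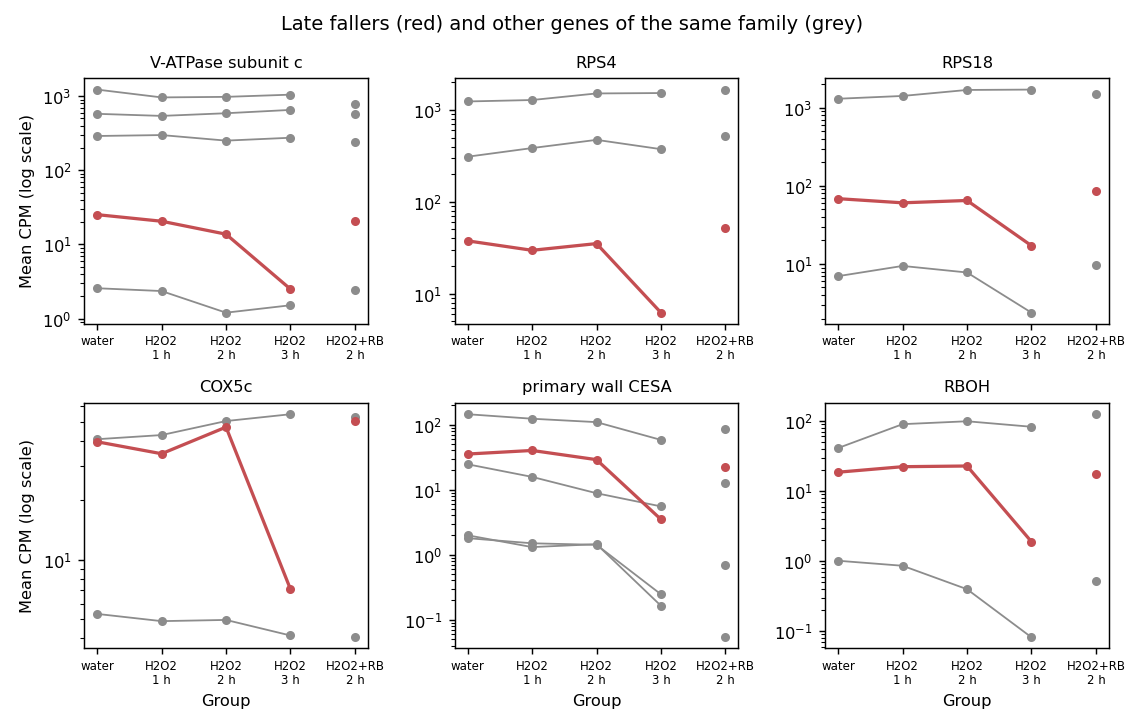
Mean CPM (log scale, 3 libraries a group) of late fallers in red and of other genes of the same family in grey, with lines joining the time course and the RB group set apart. In V-ATPase subunit c, RPS4, RPS18 and COX5c the abundant grey genes keep their level at 3 h where the red gene drops; among the CESA genes grey lines also run down.

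Of the proteasome, the protease that breaks down ubiquitin-tagged proteins, 1 of 23 genes with at least 10 CPM in water was a late faller. This was ATS9 (AT1G29150), the RPN6 subunit of the lid. It stood at 144, 187 and 81.2 CPM in water, 144, 194 and 88.5 at 1 h, 209, 115 and 116 at 2 h, 219, 239 and 193 with RB and 36.3, 21.8 and 35.3 at 3 h. Each 3 h library lay under all others, the RB libraries above those of water, and the other 22 proteasome genes had a median 3 h ratio of -0.04. ATS9 is the single RPN6 gene of the family list, and no paralog was in the table.

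The ubiquitin-conjugating enzymes UBC8 and UBC28 belong to 1 group of close paralogs, of which 7 were in the table. UBC8 stood at 53.7, 51.8 and 42.6 CPM in water, 37.6, 48.2 and 26.1 at 1 h, 31.3, 32.9 and 24.3 at 2 h, 53.98, 37.5 and 13.6 with RB and 11.8, 8.23 and 13.2 at 3 h. Its RB replicate c came near the 3 h libraries, which lay under all others. UBC28 had a 3 h ratio of -2.04. UBC10 and UBC9 had 3 h ratios of -1.30 and -0.83, while UBC11 stood at 65.7 CPM in water and 166 at 3 h. The ratio of the low UBC30 (-0.20) changes sign under TMM and median-of-ratios scaling.

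AT1G77710, a ubiquitin-fold modifier that is attached to proteins as ubiquitin is, stood at 214, 208 and 155 CPM in water, 155, 171 and 177 at 1 h, 153, 152 and 237 at 2 h, 242, 179 and 129 with RB and 47.3, 52.3 and 70.9 at 3 h. Its 3 h libraries were the lowest 3, and those of the other groups overlapped. CUL4, the scaffold of a family of ubiquitin ligases, BPM3, an adaptor of cullin-based ligases, the RING proteins RHA1B, AT4G09560 and AT1G72200, a leucine-tRNA ligase (AT1G09620) and AT1G09150 complete this group. Their 3 h ratios ran from -2.15 (CUL4) to -1.7 (RHA1B). AT1G72200 was the gradual gene among them, with a ratio of -1.18 at 2 h.

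In metabolism, CARA, the small subunit of the carbamoyl phosphate synthetase that feeds arginine and pyrimidine synthesis, had the lowest 3 h ratio of the 17 genes of that group, -3.04. It stood at 38.8, 45.7 and 32.8 CPM in water, 37.6, 41.4 and 18.9 at 1 h, 50.1, 39.3 and 31.3 at 2 h, 70.6, 39.9 and 44.5 with RB and 4.17, 2.15 and 2.71 at 3 h. The 3 h libraries were under all others, of which 1 h replicate c was the lowest. LPPbeta, a phosphatidic acid phosphatase, stood at 22.7, 25.4 and 15.6 CPM in water, 17.03, 21.5 and 13.1 at 1 h, 15.9, 16.5 and 5.48 at 2 h, 19.99, 18.8 and 18.3 with RB and 2.45, 0.358 and 1.16 at 3 h. It was lower in 2 h replicate c than in the other libraries outside 3 h.

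HMG2, an HMG-CoA reductase of the mevalonate pathway to sterols, had 2 counts in all 3 h libraries together and stood at 7.86, 21.3 and 4.92 CPM in water, 4.48, 10.8 and 7.25 at 1 h, 4.88, 5.49 and 5.48 at 2 h, 16.7, 9.97 and 7.54 with RB and 0, 0.358 and 0.387 at 3 h. HMG1, the abundant reductase, stood at 227 CPM in water and 116 at 3 h and was already at 112 at 1 h. HMG2 lies next to AT2G17360 in the annotation, the sole pair of late fallers with neighbouring positions. HYD1, a sterol isomerase, stood at 19.6, 31.9 and 9.02 CPM in water, 16.1, 18.8 and 10.2 at 1 h, 15.9, 13.7 and 17.2 at 2 h, 29.3, 17.6 and 12.2 with RB and 2.94, 2.15 and 4.65 at 3 h, with the 3 h libraries under all others.

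Of the mitochondrial enzymes, the δ/ε subunit of the F1 ATP synthase (AT5G47030) stood at 124, 141 and 67.2 CPM in water, 111, 178 and 79.8 at 1 h, 157, 98.8 and 64.2 at 2 h, 147, 137 and 111 with RB and 54.2, 12.9 and 5.04 at 3 h. Replicate a at 3 h was far above b and c, though still under the lowest library of the other groups. A cytochrome c oxidase Vc subunit, AT2G47380, stood at 45.8, 38.04 and 35.3 CPM in water, 28.7, 45.9 and 29.01 at 1 h, 40.7, 57.6 and 43.1 at 2 h, 61.3, 49.8 and 40.4 with RB and 2.94, 7.88 and 10.5 at 3 h. No 3 h library reached the other groups. Its paralog AT5G61310 had nearly the same level in water, 40.9 CPM, and stood at 54.8 at 3 h. MAB1, a subunit of mitochondrial pyruvate dehydrogenase, had a 3 h ratio of -1.77.

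ASP3, an aspartate aminotransferase, stood at 44.5, 33.5 and 15.6 CPM in water, 12.5, 38.97 and 17.4 at 1 h, 53.3, 31.1 and 35.2 at 2 h, 71.98, 63.9 and 46.2 with RB and 9.31, 5.37 and 7.36 at 3 h. The RB libraries were above those of water, and those of 3 h under all others. CYSC1, which detoxifies cyanide to cyanoalanine, ACP1 (acyl carrier protein), PGPS2, MSRB2, which repairs oxidised methionine, BETA-UP, the aconitase family protein AT2G43090 and BGLU22 had 3 h ratios between -2.43 (AT2G43090) and -1.72 (BETA-UP). MYB34, an activator of indole glucosinolate synthesis, was gradual, with means of 83.5 ± 6.01, 41.9 ± 14.4 and 22.1 ± 1.65 CPM (SD, n = 3) in water, at 2 h and at 3 h. AT1G06090, a fatty acid desaturase family protein, had the lowest ratio at 2 h of all members, -1.76.

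Of the signalling genes, ANNAT1, a calcium- and lipid-binding annexin, stood at 96.01, 95.99 and 154 CPM in water, 166, 103 and 191 at 1 h, 93.6, 121 and 159.7 at 2 h, 143, 109.6 and 46.9 with RB and 13.5, 16.8 and 20.5 at 3 h. Every 3 h library was under the other 12, of which RB replicate c, at 46.9 CPM, was the lowest. RBOH F, a plasma membrane NADPH oxidase that makes superoxide outside the cell, stood at 13.5, 20.7 and 21.3 CPM in water, 20.6, 18.4 and 27.6 at 1 h, 18.7, 21.95 and 27.4 at 2 h, 17.99, 20.5 and 13.6 with RB and 1.96, 2.15 and 1.55 at 3 h. Its 3 h libraries did not overlap with the others. Without the added 2 CPM their mean was 9.82-fold lower than in water, and with it the log2 ratio was -2.40.

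RBOHD, the oxidase with which RBOH F overlaps in function, took another course, with 40.96 CPM in water, 89.7 at 1 h and 82.3 at 3 h, a 3 h ratio of 0.97 that kept its sign under each scaling tried. BIN2, a kinase that represses brassinosteroid signalling, stood at 13.96, 16.8 and 20.5 CPM in water, 20.6, 10.3 and 18.9 at 1 h, 12.2, 21.04 and 8.61 at 2 h, 21.99, 18.2 and 13.6 with RB and 3.92, 4.65 and 0.387 at 3 h, with the 3 h libraries under all others. It was the 1 late faller among 7 brassinosteroid genes with at least 10 CPM in water, whose median 3 h ratio was -0.53. KIN10, the catalytic subunit of the energy sensor SnRK1, stood at 11.3, 9.07 and 9.84 CPM in water, 10.8, 4.93 and 7.25 at 1 h, 5.29, 5.49 and 8.61 at 2 h, 9.33, 5.28 and 7.22 with RB and 4.41, 0.716 and 0 at 3 h; the highest 3 h library lay just under 1 h replicate b.

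The other signalling members were a protein phosphatase 2C (AT2G25070), the glycolipid transfer protein ACD11, the receptor-like protein RLP12, the transcription factor bZIP2, CXIP2, the 14-3-3 protein GRF9, the EF-hand protein AT2G46600 and the receptor kinase AT5G01890. AT5G01890 was the gradual gene of this group and stood at 85.5, 105 and 130.4 CPM in water, 88.7, 54.4 and 88.5 at 1 h, 39.9, 45.7 and 32.1 at 2 h, 63.98, 36.3 and 51.2 with RB and 32.1, 26.5 and 16.7 at 3 h. The 2 h libraries were under those of 1 h and water, and a 3 h library reached into the 2 h range.

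Of the 17 wall genes, PME2 and AT4G29020 were called lower in edgeR's test against water at 2 h of H2O2. Of all genes tested, 4.73% were called lower. The water libraries of this test also took part in choosing the members, and AT4G29020 lost its call in 4 of 21 alternatives. AGP31, an arabinogalactan protein of the wall and the most abundant member, stood at 967, 1545 and 706 CPM in water, 1047, 1581 and 458 at 1 h, 1205, 648 and 199.6 at 2 h, 628, 501 and 523 with RB and 754, 125 and 100 at 3 h. The 3 h libraries did not share a level: replicate a lay among the water and 1 h libraries, and b and c were under all others. AGP4 stood at 861, 987 and 1144 CPM in water, 1187, 866 and 905 at 1 h, 497, 632 and 288 at 2 h, 431, 336 and 323 with RB and 345, 214 and 105 at 3 h. The 2 h and RB libraries were under those of water and 1 h, and 3 h replicate a reached above 3 of the 6.

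FLA8, an arabinogalactan protein with fasciclin domains, stood at 339, 409 and 555 CPM in water, 583, 401 and 477 at 1 h, 301, 293 and 143 at 2 h, 471, 372 and 337 with RB and 164, 117 and 54.6 at 3 h. The RB libraries overlapped those of water, and 3 h replicate a lay above 2 h replicate c. LRX3, a leucine-rich repeat extensin that links wall and plasma membrane, stood at 452, 432 and 673 CPM in water, 430.1, 373 and 315 at 1 h, 337, 327 and 91.6 at 2 h, 213, 301 and 207 with RB and 121, 73.7 and 52.7 at 3 h, and AT3G24480, known as LRX4, at 122, 174 and 95.1 CPM in water, 129, 139 and 69.6 at 1 h, 128, 53.97 and 16.4 at 2 h, 57.3, 87.3 and 57.5 with RB and 48.5, 9.67 and 19.4 at 3 h. In both, 2 h replicate c lay among the 3 h libraries. The 3 other LRX genes in the table were lower at 3 h as well, with ratios of -2.48, -2.50 and -3.96, and were left out since their 1 h ratio was 0.5 or more in size.

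CESA6, a subunit of the cellulose synthase of the primary wall, was the wall member with the lowest 3 h ratio, -2.76. It stood at 34.9, 37.1 and 33.6 CPM in water, 42.1, 38.5 and 39.2 at 1 h, 26.5, 25.6 and 34.4 at 2 h, 24.7, 24.03 and 16.9 with RB and 4.41, 2.15 and 3.87 at 3 h. Its 3 h libraries were far under all others, and those of RB were under those of water. CESA1 and CEV1 (CESA3), its partners in the complex, had 3 h ratios of -1.28 and -1.82. CEV1 was kept out by its 1 h ratio of -0.585 alone. Of 7 cellulose genes with at least 10 CPM in water CESA6 was the 1 late faller, and their median 3 h ratio was -1.25.

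PME2, a pectin methylesterase, stood at 38.8, 40.6 and 29.5 CPM in water, 31.4, 37.2 and 14.5 at 1 h, 10.6, 12.8 and 5.48 at 2 h, 2.00, 1.17 and 1.12 with RB and 8.33, 8.23 and 5.42 at 3 h. It was at its lowest with RB, under the 3 h libraries. AT4G29020, a glycine-rich protein, stood at 134, 218 and 257 CPM in water, 172, 199.8 and 152 at 1 h, 123, 109 and 47.8 at 2 h, 97.97, 85.6 and 77.4 with RB and 84.5, 50.8 and 38.7 at 3 h. The 2 h and RB libraries were under those of water, and 3 h overlapped both.

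The 8 other wall members were AGP22, EXPA15, SOS5, CEL5, GH9B13, the peroxidase AT5G40150, AT3G22070 and AT1G78040, with 3 h ratios from -2.09 (AT1G78040) to -1.76 (EXPA15), beside the glycosyl hydrolase AT2G27500, the sole wall gene with a late step (0.25 at 2 h, -2.50 at 3 h). Of 23 arabinogalactan protein genes with at least 10 CPM in water, AGP4, AGP22, AGP31 and FLA8 were late fallers, and the list's median 3 h ratio was -1.19. Of 11 expansins 1 was, and of 15 extensins none, since none was flat at 1 h (median ratio -2.65 at 1 h and -4.68 at 3 h). In 4 of the 17 wall members the 3 h libraries lay under both 2 h groups. The counts were 9 of 10 for pumps and transporters, 10 of 12 for signalling genes and 12 of 15 for translation and protein turnover. They were 13 of 16 for secretory and 14 of 17 for metabolic genes, and 5.49% over all genes flat at 1 h. The 3 h libraries entered the rule and roles were set with the values known, so nothing is read from these counts. Root hair and root cap markers were lower at 2 h and 3 h than in water, as given above, and their part in the wall genes was not tested.

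**Figure D5:**
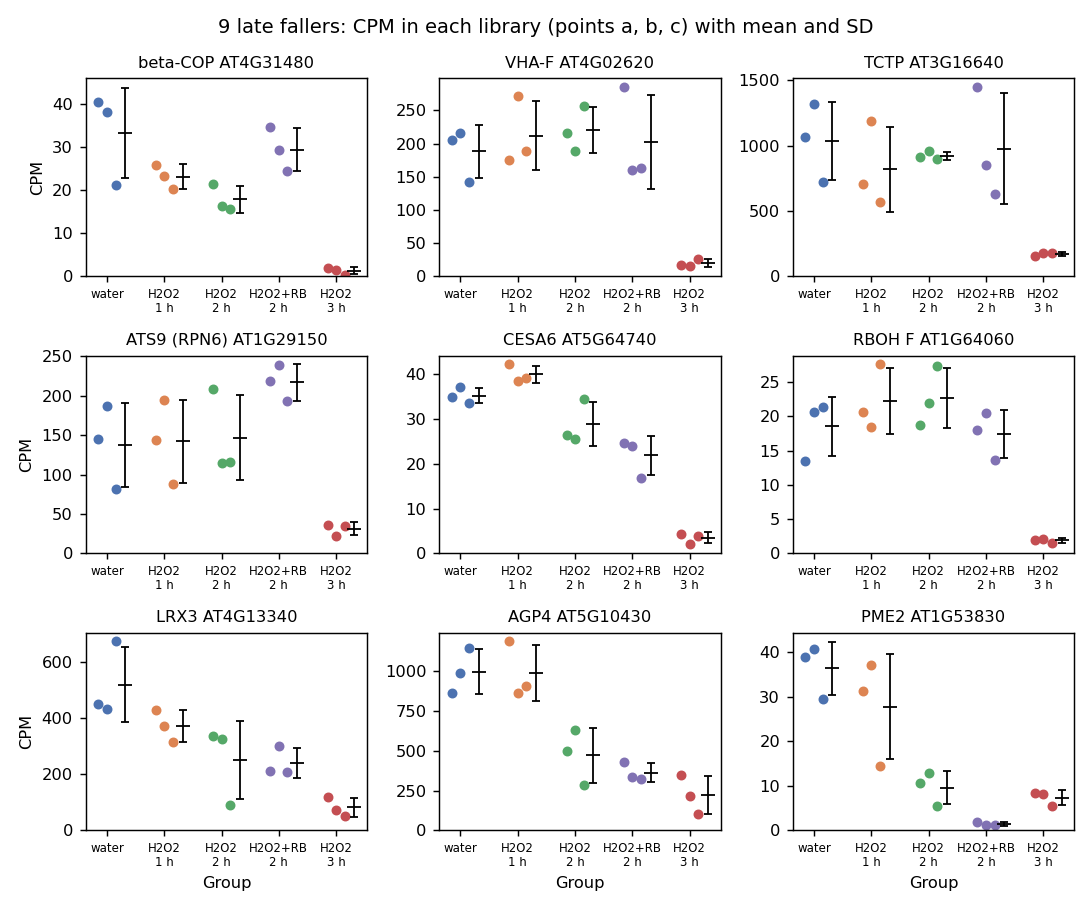
CPM of 9 late fallers in each library (points, replicates a, b and c from left to right) with the mean and SD of 3 libraries in black. The first 6, from β-COP to RBOH F, drop at 3 h with no overlap with other groups; LRX3, AGP4 and PME2 show lower means at 2 h than in water, a difference that passed the test for PME2 and missed it for LRX3 (adjusted p = 0.0939) and AGP4 (adjusted p = 0.0536).

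The 26 members without a common role included some of the steepest. AT5G16110, an uncharacterized protein, stood at 83.8, 68.99 and 41.00 CPM in water, 40.3, 61.1 and 36.3 at 1 h, 54.1, 55.8 and 32.9 at 2 h, 57.98, 36.9 and 38.4 with RB and 5.39, 6.09 and 5.04 at 3 h. AT2G44060, a late embryogenesis abundant protein, stood at 81.6, 88.5 and 61.5 CPM in water, 59.1, 55.99 and 50.8 at 1 h, 82.6, 37.5 and 42.3 at 2 h, 97.3, 65.1 and 41.1 with RB and 8.82, 7.88 and 6.59 at 3 h, and AT2G27080, of a related family, at 35.3, 51.4 and 40.2 CPM in water, 42.1, 40.1 and 39.2 at 1 h, 39.9, 23.8 and 32.1 at 2 h, 34.7, 38.1 and 30.7 with RB and 3.92, 2.86 and 4.26 at 3 h. In these 3 genes the 3 h libraries lay far under the other 12. AILP1, named for its rise under aluminum, stood at 24.9, 37.3 and 25.4 CPM in water, 17.03, 25.98 and 17.4 at 1 h, 19.9, 10.1 and 10.2 at 2 h, 23.3, 22.3 and 9.63 with RB and 3.92, 2.15 and 2.32 at 3 h, lower already in 2 h replicates b and c and in RB replicate c.

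AT3G53990 and AT5G23830 were abundant late step genes. AT3G53990, of the adenine nucleotide alpha hydrolase family, stood at 188, 178 and 222 CPM in water, 231, 153 and 257 at 1 h, 158, 219 and 269 at 2 h, 312, 192 and 144 with RB and 39.2, 40.8 and 58.9 at 3 h. AT5G23830, a lipid-recognition domain protein, stood at 123, 165 and 92.7 CPM in water, 139, 151 and 120.4 at 1 h, 109.9, 99.7 and 206 at 2 h, 193, 172 and 106 with RB and 23.5, 26.9 and 37.6 at 3 h. In both the 2 h, RB and water libraries overlapped and the 3 h libraries were under all of them. AT1G70780 had the highest ratio at 2 h, 0.37, and a 3 h ratio of -2.31. Of 2 members annotated as non-coding RNA, GUT15 stood at 11.9 CPM in water and 0.494 at 3 h, and AT5G08835 at 33.3 and 7.71. The remaining 17 members of this group were AT3G27090, AT3G14280, PSB29, AT1G18740, AT2G05920, AT1G78260, PLAT1, PTAC17, AT5G58640, AT2G25800, AT5G18490, AT1G19130, AT1G70900, AT2G28780, AT4G08330, AT5G21090 and AT4G17085, with 3 h ratios from -2.46 to -1.73.

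The one comparison whose groups took no part in the rule set RB with H2O2 against H2O2 alone, both at 2 h. All 113 late fallers passed the low-count filter. That filter and the estimate of spread used all 15 libraries, so the libraries of the rule had a part in both. With the 2 groups fitted alone, 106 late fallers were tested and PME2 was not among them. In edgeR's quasi-likelihood test with Benjamini-Hochberg adjustment over the 9986 genes tested, 1 late faller was lower and 1 higher with RB, 2 of 113, while 2.43% of all genes tested were called (1.69% lower, 0.741% higher). The share of members called is thus near the background. PME2 fell, at -2.87 (SE 0.46, adjusted p = 0.0018) on the log2 scale, from 10.6, 12.8 and 5.48 CPM with H2O2 to 2.00, 1.17 and 1.12 with RB, with no overlap. CUE1 rose by 1.66 (SE 0.38, adjusted p = 0.0231) on the same scale, from 19.1, 6.40 and 8.61 to 50.7, 36.9 and 29.05 CPM, again with no overlap. CUE1 overlaps another annotated gene, and its call was lost when 2 h replicate b or c, or RB replicate a or b, was left out.

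At an unadjusted p under 0.05 this comparison held 8 members, 4 lower and 4 higher, beside 7.6% and 4.86% of all genes tested. The 4 higher ones were CUE1, SCAMP5, ABCG35 and β-COP, and the other 3 lower ones AT1G72200, GUT15 and AT1G78260, and apart from PME2 and CUE1 none passed the adjustment. β-COP stood at 0.66 (SE 0.30, adjusted p = 0.369) in edgeR and ABCG35 at 1.05 (SE 0.47, adjusted p = 0.357). The median log2 fold change over the members was 0.24, with 77 of 113 positive, beside 0.02 over all genes tested. Without RB replicate a the members' median was 0.01, so this shift rests on that library, in which the members took 0.771% of the counts against 0.589% and 0.471% in the other RB libraries.

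Against water, 5 of 113 late fallers were lower at 2 h of H2O2 in edgeR's quasi-likelihood test, beside 4.73% of all genes tested, and 0 were higher, beside 9.21%. At an unadjusted p under 0.05, 23 members were lower and 1 higher, beside 11.2% and 15.5% of all genes tested. DESeq2 called 7 lower and 0 higher, beside 4.67% and 8.54% of the genes it tested. The 5 that edgeR called lower were AT1G06090 (-2.09 (SE 0.53, adjusted p = 0.0113), log2 scale), PME2 (-1.76 (SE 0.34, adjusted p = 0.00148)), AT5G08835 (-1.48 (SE 0.31, adjusted p = 0.00262)), AT5G01890 (-1.29 (SE 0.30, adjusted p = 0.00701)) and AT4G29020 (-0.97 (SE 0.30, adjusted p = 0.034)). AT1G06090 stood at 15.7, 34.7 and 10.7 CPM in water, 7.17, 17.2 and 21.8 at 1 h, 2.04, 5.49 and 6.26 at 2 h, 2.67, 4.69 and 3.21 with RB and 3.92, 3.58 and 1.55 at 3 h. Its 2 h, RB and 3 h libraries overlapped each other and lay under those of water and 1 h.

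AT5G08835 was at 33.6, 34.3 and 31.98 CPM in water, 19.7, 24.6 and 30.5 at 1 h, 9.36, 12.8 and 10.2 at 2 h, 10.7, 8.79 and 10.8 with RB and 11.3, 6.44 and 5.42 at 3 h, lower by 2 h with close replicates and no further step that its replicates separate. The next lowest, ABCG35 (-1.35 (SE 0.46, adjusted p = 0.0586)) and CEL5 (-1.31 (SE 0.49, adjusted p = 0.0863)), did not pass in edgeR. The highest was AT1G70780, at 0.55 (SE 0.23, adjusted p = 0.124), and ASP3, AT5G18490, AT4G17085 and RBOH F followed with 0.51, 0.48, 0.48 and 0.47, none of which passed. The median log2 fold change of the members was -0.27, beside -0.03 over all genes tested. The 2 h libraries did not enter the rule, but the water libraries did, so a chance high water level would lower these values.

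With RB against water, 12 of 113 late fallers fell and 4 rose in edgeR, beside 9.62% and 11.6% of all genes tested. PME2 was the strongest, at -4.62 (SE 0.42, adjusted p = 2.18e-07). The other 11 that fell were AT1G72200, CEL5, AT1G06090, AT1G78260, AT5G08835, AT3G14280, AGP4, AT3G22070, AT4G29020, LRX3 and AT5G01890. AGP4 was at -1.34 (SE 0.31, adjusted p = 0.00381) and LRX3 at -1.01 (SE 0.35, adjusted p = 0.0453). The 4 that rose were CUE1 (1.59 (SE 0.36, adjusted p = 0.0034)), AT1G19130 (1.15 (SE 0.40, adjusted p = 0.0471)), ASP3 (1.06 (SE 0.34, adjusted p = 0.0317)) and ATS9 (0.80 (SE 0.28, adjusted p = 0.0499)). Several of these calls depend on the processing: AT1G19130 lost its call in 15 of 21 alternatives, ATS9 in 14, AT3G22070 in 7 and ASP3, LRX3 and AT3G14280 in 5 each, and upper-quartile scaling left 1 gene called higher and 13 lower. The comparison shares the water libraries with the rule and with the 2 h comparison. All 4 of the genes that rose were of the late step course, and the 12 that fell were gradual, courses that were themselves set from these RB values.

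Late fallers came from 8 of the pathway lists. With RB against H2O2 alone, edgeR's test called 1.69% of all genes tested lower and 0.741% higher. It called 1 of 14 pectin and xyloglucan genes (PME2, lower) and 2 of 29 arabinogalactan protein genes (both lower, neither a late faller). It called 0 of 10 coatomer genes (2 at an unadjusted p under 0.05, 0 in DESeq2), 0 of 16 expansins (2 and 0), 0 of 5 COPII and ARF-GEF genes (1 and 0), and 0 of 7 cellulose, 9 brassinosteroid and 6 sterol genes (0 and 0 in each). At 2 h against water it called 4.73% of all genes tested lower and 9.21% higher. Of the lists, it called 4 lower and 1 higher of the 29 arabinogalactan protein genes, 4 lower and 2 higher of the 16 expansins, 1 lower and 1 higher of the 14 pectin genes, 2 of 6 sterol genes lower, and 1 lower each of the COPII and brassinosteroid genes. In the coatomer and cellulose lists it called 0 (1 at an unadjusted p under 0.05 and 0 in DESeq2 in each). Apart from PME2, none of the genes called in these lists was a late faller. No late faller was found among 13 tubulins, 5 actins, 8 clathrin genes, 16 aquaporins, 11 auxin transport genes, 21 core histones and 11 translation factors with at least 10 CPM in water. Their median 3 h ratios ran from -1.03 (auxin transport) to 0.72 (core histones).

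The late fallers' median transcript was 1551 bases long, beside 1701 for the genes flat at 1 h, with 1333 for late step and 1975.5 for gradual genes. They lay on chromosomes 1 to 5 with 30, 25, 16, 16 and 26 genes. Another annotated gene overlapped 39 of them (34.5%, beside 31.4% of the flat genes). In the 250 bases before the annotated start, searched on both strands, the telo-box letters AAACCCTA were found in 11 of 113 members (9.73%, beside 3.64% of the flat genes and 3.21% of all genes listed with a start), the G-box letters CACGTG in 11 (9.73%, beside 7.40% of all) and TATAAA in 55 (48.7%, beside 46.7% of all). TATAAA was found in 19 of the 28 gradual genes (67.9%) and 24 of the 59 late step genes (40.7%). Of the 8 motifs searched, the others were TTGAC (W-box core) in 41.6% of members and 45.3% of all genes, GAANNTTC (heat shock element) in 6.19% of members and 9.05% of all genes, AACGG (mitosis-specific activator core) in 23.01% of members and 21.8% of all genes, TGGGCC (site II element) in 15.9% of members and 16.8% of all genes and AAATATCT (evening element) in 2.65% of members and 4.90% of all genes. These shares are descriptions of letters in a window, with no test.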

How the data were processed

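Counts per gene were deposited by the authors in a table of 14532 genes, and its 15 raw count columns were used. A further 30 columns of single samples, the authors' normalized signal and log2 values, and the authors' deposited p-values and log2 fold changes for 10 comparisons were not used. STAR 2.4.2a, HTSeq, cutadapt, bcl2fastq and DESeq2 stand in the submitters' processing notes; no source used here gives their roles, the genome build or how molecular identifiers were treated. Gene names and products are those of RefSeq for TAIR10.1, matched by locus for 113 of 113 members; no coordinates are given.

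CPM were computed from column sums. The quasi-likelihood model of edgeR 4.0.16 (R 4.3.3) was fitted to the counts (filterByExpr, minimum count 10 and minimum total 15; 9986 genes tested and 4546 set aside; TMM factors 0.784 to 1.20; robust glmQLFit of all 15 libraries with a term per group, 10 residual degrees of freedom, common biological coefficient of variation 0.272; two-sided glmQLFTest; Benjamini-Hochberg over the genes tested; a call is an adjusted p under 0.05). Each adjusted p comes from this fit. Each SE printed is derived, as the absolute log2 fold change divided by the square root of the test's F statistic. It is approximate, and the p-value does not follow from it in every gene. Alternatives were other scalings, no filter, DESeq2 1.42.0, a replicate block, 2 groups alone and each library left out. What replicate letters mark is not given, so no pairing was used.

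The members, lists, roles, families and courses were chosen with earlier results of these data known. Named with values were the members highest in water, lowest at 3 h, called with RB, highest or lowest at 2 h, in a pathway list, or nearest a limit. Further members, such as RBOH F, STT3A and UBC8, and the paralogs were named after their values were seen.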

Additional observations from a re-analysis of the deposited data

How the results depend on the processing

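In the comparison of RB with H2O2 alone, 2 late fallers were called under 5 of 6 other settings, and leaving out single libraries gave 1 to 2. When the 2 groups were fitted alone, 106 late fallers were tested and 1 was called, higher with RB. PME2 was not among those tested in that fit, so its call was not lost there. At 2 h against water the count was 5, with 6 to 7 under the other settings and 3 to 9 when single libraries were left out (3 without water replicate b, 9 without 2 h replicate b or RB replicate c). With RB against water it was 16, with 14 to 20 and 8 to 17 (8 without water replicate c, 10 without RB replicate b). The replicate block gave 2, 7 and 14 members in the 3 comparisons. In the 30 same-letter pairs of libraries, residuals correlated at -0.44 to 0.64, and 7 of 15 libraries were closest to their own letter. Of 482 repeats of the 23 calls, 417 passed, 65 did not and 0 reversed.

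The number of late fallers itself depends on the rule: 86 with TMM-scaled CPM (67 shared with the 113), 145 with 0.5 CPM added (105 shared), 163 with a 3 h limit of -1.5, 57 with a 1 h limit of 0.25, and 93 to 175 without 1 library (175 without 3 h replicate a). Scaling moved the 3 h median of the flat genes from -0.22 to 0.03 (TMM), 0.04 (median of ratios) and -0.05 (upper quartile), an alternative chosen after seeing the data. The late fallers' median moved from -2.04 to -1.80, -1.80 and -1.87, and the highest of them from -1.7 to -1.41, -1.4 and -1.5. Fewer than 10 counts over the 3 h libraries limit the ratios of 3 members (HMG2, GUT15 and AT2G43090).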
